A study of Homo sapiens with 36 samples.

Results

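The 9 genes described here encode parts of the DNA replication machinery: POLA1, POLA2 and PRIM1 of the polymerase α and primase complex, POLD1 and POLE as the catalytic subunits of polymerases δ and ε, the sliding clamp PCNA, the flap nuclease FEN1, the DNA ligase LIG1 and the chromatin protein UHRF1. They were chosen by gene name, all 9 were found among the 15891 genes of the deposited table, and all 9 passed the filter on low values. The cells were HCT116, an established human colorectal carcinoma line, exposed to 10 µM 5-fluorouracil (5-FU) for 48 h. This pyrimidine analogue inhibits thymidylate synthase and is also incorporated into nucleic acids. Both kinds of RNA were read from each collection, the heavy polysomal pool, made of gradient fractions in which an mRNA carried more than 3 ribosomes, and the cytoplasmic lysate from which nuclei and mitochondria had been spun out. Collections on D1 and D2 fell within the 48 h of drug, those on D7, D14 and D16 came after it, and D0 preceded it, which gave 12 groups and 36 libraries, with 3 in a group under the letters A to C, labelled as batches. An untreated culture of the later days was not analysed here, so drug and time in culture cannot be told apart, and what was done between D14 and D16 is not given in the sources used here.

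Replication forks start each new strand with the polymerase α and primase complex, which lays down an RNA and DNA primer. Polymerase ε then extends the leading strand and polymerase δ the lagging strand, both held on DNA by the PCNA ring, and FEN1 and LIG1 trim and seal the lagging-strand fragments. UHRF1 recognises hemimethylated DNA behind the fork and brings in the maintenance methyltransferase DNMT1. Genes of this machinery are commonly transcribed under E2F factors as cells enter S phase, and PCNA is in addition a known p53 target that also serves DNA repair.

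The promoters of these genes are shown because most of them carry an E2F word, PCNA included, although the PCNA mRNA did not move with the others. The words searched on both strands were TTTCCCGC, TTTCGCGC, TTTGCCGC and TTTGGCGC, in the 250 bases before each RefSeq transcript start (GRCh38.p14). They stood in 7 of the 13 windows of these genes, which belong to 6 of the 9 genes, against 2.79% of 35116 windows of all genes. Each line gives up to 60 bases around the word in the direction of the gene, 5′ to 3′, with the word in capitals, as written or as its reverse complement.
POLA1: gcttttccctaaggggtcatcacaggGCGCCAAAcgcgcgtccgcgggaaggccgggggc
POLA2: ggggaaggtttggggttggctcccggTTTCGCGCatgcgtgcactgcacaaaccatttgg
POLE: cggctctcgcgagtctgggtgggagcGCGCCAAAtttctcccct
PCNA: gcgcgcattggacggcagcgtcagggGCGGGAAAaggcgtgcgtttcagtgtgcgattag
LIG1: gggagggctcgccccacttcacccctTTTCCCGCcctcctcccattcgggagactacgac
UHRF1: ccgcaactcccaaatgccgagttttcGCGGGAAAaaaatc
UHRF1: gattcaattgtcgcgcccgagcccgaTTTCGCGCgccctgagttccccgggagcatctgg
These stretches lie at chrX:24693755-24693814 (plus strand, POLA1), chr11:65261883-65261942 (plus strand, POLA2), chr12:132687343-132687386 (minus strand, POLE), chr20:5126648-5126707 (minus strand, PCNA), chr19:48170425-48170484 (minus strand, LIG1), and chr19:4909461-4909500 and chr19:4909958-4910017 (plus strand, UHRF1). The POLE word began 18 bases before the transcript start and the first UHRF1 word 14 bases before it, whereas the POLA1 word lay 137 bases and the second UHRF1 word 160 bases upstream. In PCNA and LIG1 the word overlapped a GC box (GGGCGG). GC boxes stood in 9 of the 13 windows against 42.6% of all windows, CCAAT in 7 of 13 against 32.01%, and the cell cycle word TTTGAA in 0 of 13 against 13.3%. The windows of PRIM1, POLD1 and FEN1 held none of the E2F words. A match is a description of letters and not a bound site.

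Values are read counts divided by a size factor of the library, as the authors deposited them (normalised counts), and differences are on the log2(value + 1) scale with their standard error (SE). Depth was 46.2 to 55.7 megareads in the heavy pool and 41.0 to 104 megareads in the cytoplasm, where all but a single library lay at 55.2 megareads or below. The spread between the 3 letters was smaller in the heavy pool, with a median coefficient of variation of 9.68% over the 9 genes and 6 days (0.528% to 31.3%), than in the cytoplasm, with 20.0% (1.80% to 64.7%). The cytoplasmic libraries of letter B at D14 and D16 stood apart along base composition: their deviations from the group mean correlated with transcript GC content across 12381 genes, at r = 0.80 and 0.74. The library farthest from its group was cytoplasmic letter A at D7, with a standard deviation of 0.66 (log2) around the group means over all genes. In it ribosomal protein mRNAs took 22.9% of values (14.8% and 16.0% in letters B and C) and genes of the mitochondrial chromosome 9.29% (4.62% and 3.57%). Without that library the counts of the 9 genes called in the cytoplasm were 7 at D7 and 4 between D14 and D7, as with it. Of 9 epithelial markers 7 were listed, among them EPCAM at 6163 to 18936, CDX2 at 1187 to 2052 and KRT20, low at 11.6 to 265. CDX1 and VIL1 were not listed. Of 8 markers of other cell types only COL1A1 (212 to 865) and HBA1 (19.5 to 415) were listed. These moved with the days: both were higher than at D0 in the cytoplasm at D1 (COL1A1 1.09, HBA1 2.25) and both lower in the heavy pool at D7 (-0.95 and -1.92). Of the 7 epithelial markers 4 were higher and 1 lower in the cytoplasm at D7, with a median of 1.47. The part of either list in the results was not tested. The labels do not say that letters were separate cultures, so p-values measure the spread between these libraries. Within bulk samples, fewer cells in S phase and less mRNA per cell cannot be told apart. Scaling to equal totals in place of the deposited size factors moved the median difference of all genes by day to as much as 0.44 in the heavy pool (D16 against D0) and 0.48 in the cytoplasm (D14 against D7).

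Before the drug the clamp was by far the most abundant of these mRNAs and the accessory subunit of polymerase α the least. Per kilobase of the longest coding transcript, the heavy pool at D0 held 22690 normalised counts of PCNA, 8270 of FEN1 and 4888 of UHRF1. It held 2173 of LIG1, 1889 of PRIM1, 1838 of POLD1, 708.6 of POLE, 343.2 of POLA1 and 105.1 of POLA2, which regulates the α complex. The same genes were relatively rich in the heavy pool: 8 of 9 were higher there than in the cytoplasm at D0 and 0 were lower, where 26.7% of all genes were higher and 19.1% lower. Their median difference, heavy pool minus cytoplasm, was 0.84 against 0.14 for all genes. LIG1 had 8468, 8091 and 9181 normalised counts in the heavy pool (letters A, B and C) against 4076, 3679 and 4385 in the cytoplasm, a difference of 1.09 ± 0.22 (SE; limma adjusted p = 0.000203). The LIG1 values of the preparations did not overlap. POLA1, the catalytic subunit of polymerase α, gave 0.52 ± 0.23 and an adjusted p of 0.0601. Its values of the preparations did not overlap either. With only the D0 groups fitted POLA1 passed (adjusted p = 0.00023), and all 9 genes were then higher in the heavy pool. The calls of POLA2 (0.76, adjusted p = 0.0408) and POLE (0.77, adjusted p = 0.0191) were lost when single D0 libraries were left out, at 0.62 (adjusted p = 0.1505) without heavy letter C for POLA2 and 0.68 (adjusted p = 0.0731) without cytoplasmic letter B for POLE. In a fit to differences within each letter POLA2 did not pass (adjusted p = 0.0548).

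**Figure D1:**
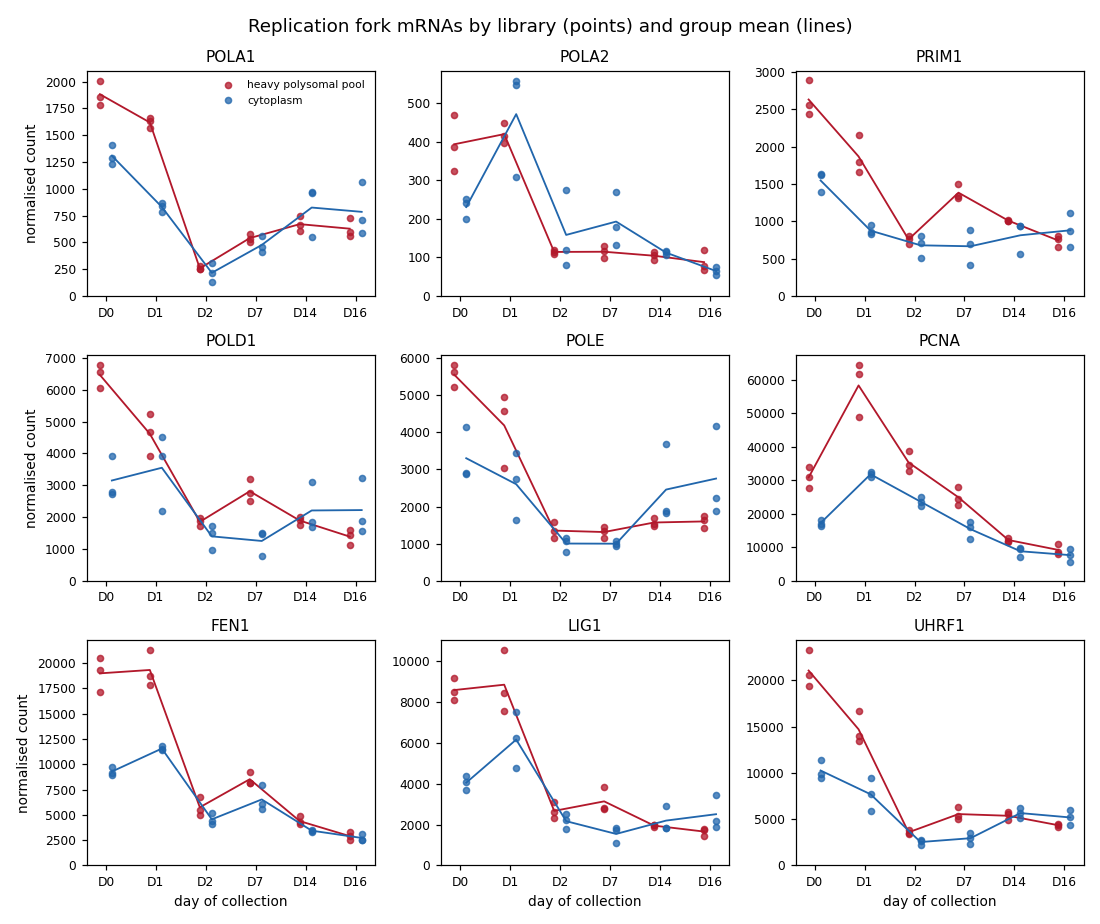
Normalised counts of the 9 genes by day of collection, with the heavy polysomal pool in red and the cytoplasm in blue; points are the 3 libraries of a group and lines join group means. PCNA peaked at D1 in both preparations, and the red lines of the other genes dropped at D2 and stayed below D0. The blue lines of POLA1, PRIM1, POLD1, POLE, LIG1 and UHRF1 rose between D7 and D14, a step called for POLE and UHRF1. Of these, POLA1 and UHRF1 had already risen between D2 and D7, a step called for POLA1.

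On the first day of drug the group had not moved as one. At D1 the heavy pool had 1 gene higher than at D0 (PCNA) and 4 lower (PRIM1, POLD1, POLE and UHRF1), where 20.1% of all genes were called higher and 26.9% lower. In the cytoplasm at D1 PCNA was again the 1 gene called higher and 0 were lower, against 10.9% and 7.09% of all genes. With the letters as a block 3 further cytoplasmic genes passed at D1: LIG1 at 0.58 (adjusted p = 0.0447), PRIM1 at -0.82 (adjusted p = 0.0282) and UHRF1 at -0.44 (adjusted p = 0.0408). The cytoplasmic count was 0 without letter C. The heavy-pool call of POLE at D1 (-0.44) did not pass without heavy D1 letter C (-0.22, adjusted p = 0.162).

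By D2, at the end of exposure, 8 genes had fallen in the heavy pool and 0 had risen, where 34.5% of all genes fell and 30.4% rose. The median of the 9 differences was -1.79 against -0.03 for all genes. In the cytoplasm 7 genes fell and 0 rose at D2, where 10.6% of all genes fell and 14.2% rose, with a median of -1.19 over the 9 genes against 0.00 for all genes. PCNA alone was not called at D2 in the heavy pool, and PCNA and POLA2 were not called in the cytoplasm. Without letter C the cytoplasmic count was 4, with PRIM1, POLD1 and LIG1 lost.

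At D7, after the drug, all 9 genes were lower in the heavy pool and 0 higher, against 36.5% and 27% of all genes. In the cytoplasm 7 were lower and 0 higher, against 15.7% and 18.3% of all genes, with PCNA and POLA2 again outside the calls. The median difference of the 9 genes from D0 was -1.47 in the heavy pool and -1.38 in the cytoplasm. Without letter C the cytoplasmic count was 3, with PRIM1, POLD1, POLE and FEN1 lost.

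The preparations parted on the last days. All 9 genes were lower in the heavy pool at D14 and 0 higher (37.6% and 34.4% of all genes), and likewise 9 and 0 at D16 (36.6% and 36.2%), with medians of -1.82 and -2.18. In the cytoplasm 5 genes were lower at D14 and 0 higher, where 5.05% of all genes were lower and 7.75% higher, and 5 were lower at D16 and 0 higher, where 7.26% were lower and 9.47% higher. The cytoplasmic medians were -0.92 and -0.84. The cytoplasmic count at D14 was 1 gene under scaling to equal totals and 1 gene without letter C, and that at D16 was 3 genes and 2 genes under the same changes. Without letter A or B the D14 count was 3 and 2, and without single D0 libraries it was 3, 3 and 2 (letters A, B and C).

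**Figure D2:**
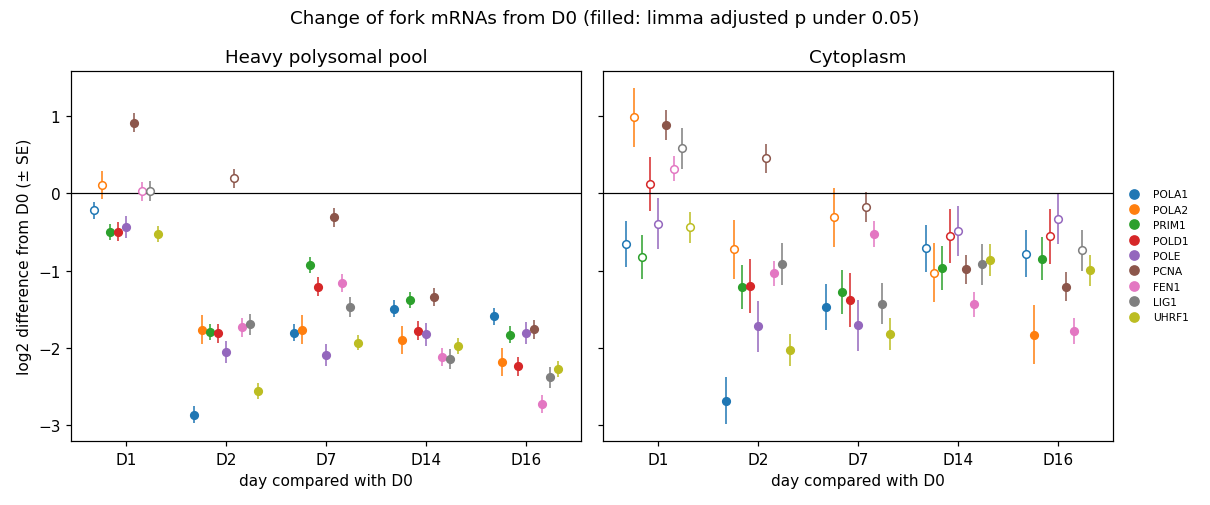
Log2 difference from D0 (y axis, with its SE) of each gene on each later day, heavy pool on the left and cytoplasm on the right; filled points have a limma adjusted p under 0.05. In the heavy pool all 9 points were filled and below 0 from D7 on, while in the cytoplasm 5 points were filled at D14 and 5 at D16.

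The 3 polymerase α and primase genes all fell in the heavy pool by D2, POLA1 the most. POLA1 had 248, 250 and 276 normalised counts in the heavy pool at D2 against 1861, 1780 and 2008 at D0, a difference of -2.86 ± 0.11 (SE; limma adjusted p = 9.1e-16), the largest fall among the 9 genes on that day. In the cytoplasm it had 127, 212 and 310 at D2 against 1228, 1409 and 1290 at D0, or -2.68 ± 0.30 (adjusted p = 4.35e-06). Neither pair of groups overlapped, and letter C was the highest of the D2 libraries in both preparations. POLA1 then came part of the way back: the heavy pool held 659, 743 and 609 at D14 against 583, 532 and 507 at D7, a gain of 0.31 ± 0.11 (adjusted p = 0.0193) that did not pass without heavy letter B of D14 (0.23, adjusted p = 0.112). In the cytoplasm POLA1 stood at 967, 552 and 957 at D14, with letter B below the other letters, and at -0.71 ± 0.30 from D0 it was not called (adjusted p = 0.135).

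POLA2, the accessory subunit, was the least expressed gene and the most scattered in the cytoplasm. It had 547, 559 and 310 normalised counts there at D1 against 241, 200 and 251 at D0. All 3 letters were above all D0 values, yet the difference of 0.99 ± 0.38 (SE) had an adjusted p of 0.0807. That SE pools the spread of all 6 days, and with only the D0 and D1 groups fitted the rise passed (adjusted p = 0.0147). At D2 letter A, at 275, lay above every D0 library while letters B and C, at 81.1 and 119, lay below them, and without that letter A library the difference was -1.21 (adjusted p = 0.0181) in place of -0.72 (adjusted p = 0.184). In the heavy pool the POLA2 libraries at D2 (108, 120 and 115) and at D0 (325, 386 and 469) were far apart, at -1.76 ± 0.18 (adjusted p = 1.56e-08).

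PRIM1, the primase that makes the RNA part of the primer, was 1 of the 4 genes that had fallen in the heavy pool at D1. The heavy pool held 1658, 1792 and 2157 normalised counts at D1 against 2562, 2440 and 2893 at D0 (-0.50 ± 0.11 SE; adjusted p = 0.000623), and 764, 701 and 809 at D2. It partly returned by D7 (1314, 1335 and 1503) before it went down again to 1006, 1005 and 1015 at D14 and 661, 769 and 798 at D16. The step between D14 and D7 was -0.45 ± 0.11 (adjusted p = 0.00104), and the heavy-pool difference of D16 from D0 was -1.82 ± 0.11 (adjusted p = 1.33e-12). In the annotation PRIM1 shares exon positions on its strand with NACA, whose values ran from 6507 to 69322, so that reads counted for PRIM1 are uncertain. Its cytoplasmic call at D16 (-0.84, adjusted p = 0.0499) was lost when any D0 library was left out, with adjusted p from 0.0899 to 0.137.

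The catalytic subunits of the main replicative polymerases fell together at D2 and came apart between preparations at D14. POLE, the leading-strand polymerase, had 1157, 1327 and 1570 normalised counts in the heavy pool at D2 against 5822, 5226 and 5618 at D0 (-2.05 ± 0.14 SE; limma adjusted p = 2.84e-11). In the cytoplasm it had 783, 1068 and 1156 at D2 against 2907, 2866 and 4135 at D0 (-1.72 ± 0.33, adjusted p = 0.000858). The groups did not overlap in either preparation. At D14 the heavy pool still held only 1685, 1536 and 1487, or -1.82 ± 0.14 from D0 (adjusted p = 1.99e-10). The cytoplasm, by contrast, held 1824, 3677 and 1871 at D14 and 1872, 4161 and 2230 at D16, values that overlapped with D0 through letter B, and neither day was called (adjusted p = 0.374 and 0.547). Between D14 and D7 cytoplasmic POLE rose by 1.22 ± 0.33 (adjusted p = 0.01), a call that did not pass without letter C (1.34, adjusted p = 0.0667).

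POLD1, the lagging-strand polymerase, had a higher level in the heavy pool at D7 than at D14 or D16. It had 1709, 1867 and 1970 normalised counts in the heavy pool at D2 against 6558, 6061 and 6775 at D0, or -1.81 ± 0.12 (SE; adjusted p = 1.52e-11), and 2745, 2494 and 3187 at D7. By D16 it had come down to 1434, 1592 and 1129, at -2.23 ± 0.12 from D0 (adjusted p = 4.26e-13). Each of these groups lay below D0 with no overlap. In the cytoplasm POLD1 had 976, 1710 and 1493 at D2 against 2792, 2732 and 3919 at D0 (-1.19 ± 0.35, adjusted p = 0.0181), and without cytoplasmic D2 letter A this was -0.96 (adjusted p = 0.0887). Cytoplasmic values at D14 were 1683, 3102 and 1833, where letter B lay above 2 of the D0 libraries. In the annotation POLD1 shares exon positions on its strand with AC020909.1, a coding gene that was not listed, so reads counted for POLD1 are uncertain. POLD1 has the most GC-rich transcript of the 9 genes, at 65.0% against a median of 49.4% over 12381 genes. At D14 and D16 cytoplasmic letter B was the highest for POLD1, also for POLE (56.4%), LIG1 (56.3%), UHRF1 (54.6%) and POLA2 (54.5%). Letter B was the lowest for PCNA (45.25%), POLA1 (42.9%) and PRIM1 (40.1%), but not the highest for FEN1 (53.7%). The part of the letter B composition shift in the D14 and D16 values of these genes was not tested. With the letters as a block the cytoplasmic gains between D14 and D7 passed for POLD1 (0.83, adjusted p = 0.00891) and POLA1 (0.76, adjusted p = 0.0342).

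PCNA took a course of its own. The heavy pool held 48839, 61773 and 64331 normalised counts at D1 against 27590, 30963 and 33949 at D0, a rise of 0.91 ± 0.12 (SE; limma adjusted p = 2.16e-06). The cytoplasm held 31975, 32509 and 30856 at D1 against 17004, 18209 and 16459 at D0, a rise of 0.88 ± 0.19 (adjusted p = 0.00417). Every D1 library was above every D0 library in both preparations. The cytoplasmic call was lost under scaling to equal totals (0.64, adjusted p = 0.111) and without letter C (0.87, adjusted p = 0.0998).

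At D2, when the other 8 genes had fallen in the heavy pool, PCNA stood at 32650, 34472 and 38830 in the heavy pool and 24974, 23622 and 22244 in the cytoplasm. These were 0.20 ± 0.12 (adjusted p = 0.159) and 0.45 ± 0.19 (adjusted p = 0.0917) above D0 and were not called. With the letters as a block the heavy-pool difference passed (adjusted p = 0.0299), as it did under scaling to equal totals, at 0.58 (adjusted p = 4.31e-05). PCNA was called lower in the heavy pool at D7 by a small margin (-0.31 ± 0.12, adjusted p = 0.0297), which vanished under scaling to equal totals (-0.02, adjusted p = 0.879). That call did not pass without letter B or C of D0 or letter A or B of D7 (adjusted p from 0.0669 to 0.137). Its clear fall came only on the last days, to 11959, 11658 and 12821 at D14 and 7960, 8696 and 10887 at D16 in the heavy pool, differences from D0 of -1.34 ± 0.12 (adjusted p = 1.65e-09) and -1.76 ± 0.12 (adjusted p = 1.7e-11). In the cytoplasm PCNA fell to 7757, 5694 and 9431 at D16, at -1.20 ± 0.19 (adjusted p = 0.000369).

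The lead of PCNA over its fork partners opened at D1, was widest at D2 and had mostly closed by D14. The ratio of PCNA to the geometric mean of the other 8 genes in the same library was 6.09, 6.92 and 6.66 in the heavy pool at D0, 12.6, 14.2 and 17.7 at D1, and 30.6, 30.7 and 30.9 at D2. It was 14.3, 16.1 and 15.8 at D7, 8.85, 8.86 and 9.82 at D14, and 7.73, 7.82 and 10.1 at D16. In the cytoplasm the ratio was 7.02, 7.45 and 5.87 at D0, 29.2, 24.9 and 21.7 at D2, and 7.13, 3.90 and 6.97 at D16. The ratio is free of any scaling of a library, since a factor applied to all genes cancels in it. The D2 libraries of the heavy pool nearly coincided, and the D2 libraries lay above every library of every other day in both preparations.

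**Figure D3:**
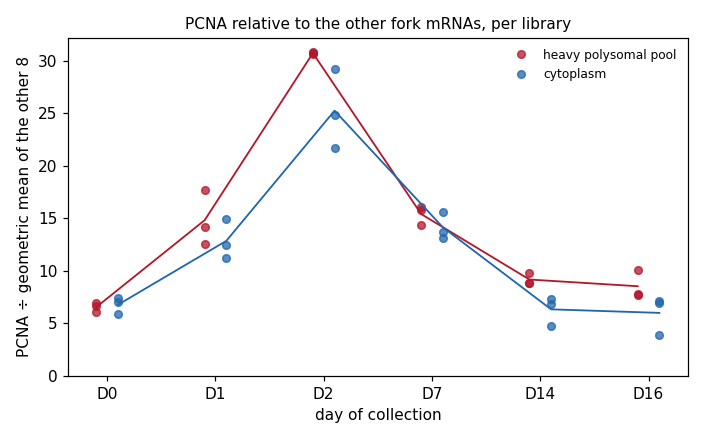
PCNA divided by the geometric mean of the other 8 genes (y axis) in each library by day, heavy pool in red and cytoplasm in blue, with lines through group means. The D2 libraries, at 30.6 to 30.9 in the heavy pool and 21.7 to 29.2 in the cytoplasm, lie above all others.

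FEN1, which removes the flap ahead of a lagging-strand fragment, had the largest fall of the 9 genes in the heavy pool by D16. It was 17876, 21328 and 18761 in the heavy pool at D1 against 17147, 19297 and 20518 at D0, overlapping groups (adjusted p = 0.881). It then came down to 5001, 5433 and 6799 at D2, rose to 8162, 8159 and 9243 at D7, and reached 2501, 2882 and 3304 at D16. The heavy-pool difference from D0 at D16 was -2.72 ± 0.12 (SE; limma adjusted p = 1.34e-14). In the cytoplasm FEN1 had 2516, 2533 and 3090 at D16 against 9148, 9712 and 8972 at D0, or -1.78 ± 0.16 (adjusted p = 1.28e-06), again without overlap. The cytoplasmic fall at D7 was smaller (-0.52 ± 0.16, adjusted p = 0.0203) and did not pass when cytoplasmic letter B or C of D7 was left out (adjusted p = 0.0777 and 0.0617). FEN1 shares exon positions with TMEM258 on the opposite strand (listed at 257 to 5456) and with FADS2 on its own (209 to 1120), and the strand setting of the counting is not given in the sources used here, so reads could be shared.

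LIG1, the ligase that joins the fragments, showed the same break between D1 and D2. The heavy pool held 2322, 2594 and 3084 normalised counts at D2 against 8468, 8091 and 9181 at D0, or -1.69 ± 0.13 (SE; adjusted p = 1.59e-10). On the last days it held 1985, 1985 and 1869 at D14 and 1771, 1748 and 1446 at D16, and the D16 difference from D0 was -2.38 ± 0.13 (adjusted p = 5.43e-13). In the cytoplasm LIG1 was at 1081, 1725 and 1812 at D7, 1834, 2915 and 1828 at D14 and 1875, 3444 and 2197 at D16, and its step between D14 and D7 was 0.51 ± 0.27 (adjusted p = 0.138). At D16 its cytoplasmic difference from D0 was -0.74 ± 0.27 and was not called (adjusted p = 0.0660), although it passed with the letters as a block (adjusted p = 0.0157) and without cytoplasmic D16 letter B (-0.99, adjusted p = 0.0227). At D14 the cytoplasmic call of LIG1 (-0.92, adjusted p = 0.0301) was lost when any single D0 library, or letter A or C of D14, was left out, with adjusted p from 0.0616 to 0.1125. LIG1 shares exon positions with AC011466.3 on the opposite strand, which was not listed.

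UHRF1, which couples DNA methylation to the fork, fell at D2 more than any of the 9 genes but POLA1, and was called lower in the cytoplasm from D2 through D16. UHRF1 had 3545, 3403 and 3775 normalised counts in the heavy pool at D2 against 20543, 19348 and 23290 at D0, a difference of -2.56 ± 0.10 (SE; limma adjusted p = 2.1e-15). In the cytoplasm it had 2211, 2693 and 2672 at D2 against 9495, 9925 and 11346 at D0, or -2.02 ± 0.20 (adjusted p = 1.14e-06). No D2 library of UHRF1 came near its D0 level. Its cytoplasmic level rose again to 5098, 6208 and 5654 at D14, 0.96 ± 0.20 above D7 (adjusted p = 0.00291), without reaching D0 (-0.86 ± 0.20, adjusted p = 0.00944). The first of these did not pass without letter C (adjusted p = 0.0577), nor did the second without cytoplasmic D0 letter C (-0.78, adjusted p = 0.0508). The second was also lost under scaling to equal totals (-0.71, adjusted p = 0.153) and without letter B (-0.95, adjusted p = 0.0503) or letter C (-0.79, adjusted p = 0.224). At D16 the cytoplasmic call (-0.99, adjusted p = 0.00294) was lost under scaling to equal totals (-0.83, adjusted p = 0.0801) and without letter C (-0.93, adjusted p = 0.112). In the heavy pool the step between D14 and D7 was -0.04 ± 0.10 (adjusted p = 0.727).

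Over the later steps the genes did not all move the same way. Between D14 and D7 in the cytoplasm 2 genes rose (POLE and UHRF1) and 2 fell (PCNA at -0.81 ± 0.19 and FEN1 at -0.91 ± 0.16). These counts were near the shares of all genes, of which 16.5% rose and 19.1% fell. Without letter C only FEN1 of the 4 called genes passed, and the split depends on the scaling. Under scaling to equal totals 5 rose and 1 fell (FEN1), with POLA1 (1.23, adjusted p = 0.0285), POLD1 (adjusted p = 0.0329) and LIG1 (0.98, adjusted p = 0.0404) among the risers and PCNA at -0.34 (adjusted p = 0.314). Over that interval 1 gene rose in the heavy pool (POLA1) and 5 fell (PRIM1, POLD1, PCNA, FEN1 and LIG1), where 29.5% rose and 28.9% fell. PCNA fell by 1.03 on the log2 scale there (SE 0.12, adjusted p = 2.56e-07). Between D16 and D14 the cytoplasm gave 0 calls in the limma fit among the 9 genes and 0% of all genes in either direction, and 1 of the 9 had an unadjusted p under 0.05. Between these days 0 rose and 5 fell in the heavy pool (PRIM1, POLD1, PCNA, FEN1 and UHRF1), where 8.68% of all genes rose and 10.2% fell. That count was 0 without letter A, 2 without letter B, and 3 without D14 letter C or D16 letter A or B. Among these, FEN1 at -0.60 ± 0.12 (adjusted p = 0.00155) changed most.

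Polysome association, the heavy-pool change minus the cytoplasmic change, was not called for any of the 9 genes through D7. At D1 there were 0 higher and 0 lower (0.787% and 3.37% of all genes), at D2 0 and 0 (0.0378% and 2.03%) and at D7 0 and 0 (0.749% and 3.2%). At an unadjusted p under 0.05 limma counted 1, 4 and 2 of the 9 genes on these days. The ratio of heavy pool to cytoplasm within a letter was lower in every letter for some genes, though not for all. LIG1 had 1.04 to 1.39 over the letters at D2 against 2.08 to 2.20 at D0, and UHRF1 had 1.60, 1.26 and 1.41 against 2.16, 1.95 and 2.05. FEN1 had 0.957, 1.24 and 1.68 against 1.87, 1.99 and 2.29. These groups did not overlap. A fit to the within-letter differences, which keeps the heavy pool and cytoplasm of a collection together, also called 0 genes at D1, D2 and D7, with adjusted p at D2 of 0.185 for LIG1, 0.274 for UHRF1 and 0.131 for FEN1. FEN1 came closest at D2 (-0.70 ± 0.20, adjusted p = 0.0558) and POLA2 at D7 (-1.45 ± 0.43, adjusted p = 0.0501). With the letters as a block FEN1 passed at D2 (adjusted p = 0.0453), and FEN1 (adjusted p = 0.0482) and POLA2 (adjusted p = 0.0444) passed at D7.

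At D14 association was lower for 5 genes and higher for 0, where 16.7% of all genes were lower and 11.5% higher. At D16 it was lower for 6 and higher for 0, where 17.9% were lower and 11.6% higher. For LIG1 the heavy pool held 0.945, 0.508 and 0.658 times the cytoplasmic value of the same letter at D16 against 2.08, 2.20 and 2.09 times at D0, an association difference of -1.64 ± 0.31 (SE; limma adjusted p = 0.000338). For POLD1 the ratios were 0.919, 0.492 and 0.607 at D16 against 2.35, 2.22 and 1.73 at D0 (-1.68 ± 0.39, adjusted p = 0.00185). In both genes every D16 ratio was below every D0 ratio, and letter B was the lowest at D16. For UHRF1 they were 0.967, 0.749 and 0.832 against 2.16, 1.95 and 2.05 (-1.28 ± 0.23, adjusted p = 0.000189), with the letters closer together. POLE (-1.47 ± 0.38, adjusted p = 0.00404), FEN1 (-0.94 ± 0.20, adjusted p = 0.000827) and PRIM1 (-0.98 ± 0.31, adjusted p = 0.0154) made up the rest of the D16 calls. POLE did not pass without letter B (-1.15, adjusted p = 0.0602), nor PRIM1 without cytoplasmic D16 letter C (-0.80, adjusted p = 0.0522). PRIM1 was also lost without all letter A libraries (-0.83, adjusted p = 0.08915) and without all letter C libraries (-0.82, adjusted p = 0.201). PCNA, at -0.55 ± 0.23 (adjusted p = 0.0645), passed with the letters as a block (adjusted p = 0.0393), in the fit to within-letter differences (adjusted p = 0.0488) or without single libraries of D16. That fit called 5 genes at D14 and 7 at D16.

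Composition of the libraries moved along with these late differences. mRNAs of ribosomal proteins took 10.2% to 12.3% of the heavy-pool values at D14 and D16 against 5.89% to 6.31% at D0, and in the cytoplasm 11.6% to 13.6% against 10.5% to 12.5%. Their part in the association values was not tested. Without cytoplasmic D14 letter B, which stood apart along GC content, POLD1 association at D14 was -0.95 and was not called (adjusted p = 0.0710), while the calls of POLE, FEN1, LIG1 and UHRF1 held and POLA1 passed at -1.05 (adjusted p = 0.0167). Without all letter B libraries, 1 of the 5 calls at D14 was left (UHRF1), against 3 without letter C, with POLE at -0.94 (adjusted p = 0.125) and LIG1 at -0.99 (adjusted p = 0.0743). Under scaling to equal totals 2 calls were left at D14 (FEN1 and UHRF1), and at D16 PRIM1 was lost (-0.72, adjusted p = 0.236).

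**Figure D4:**
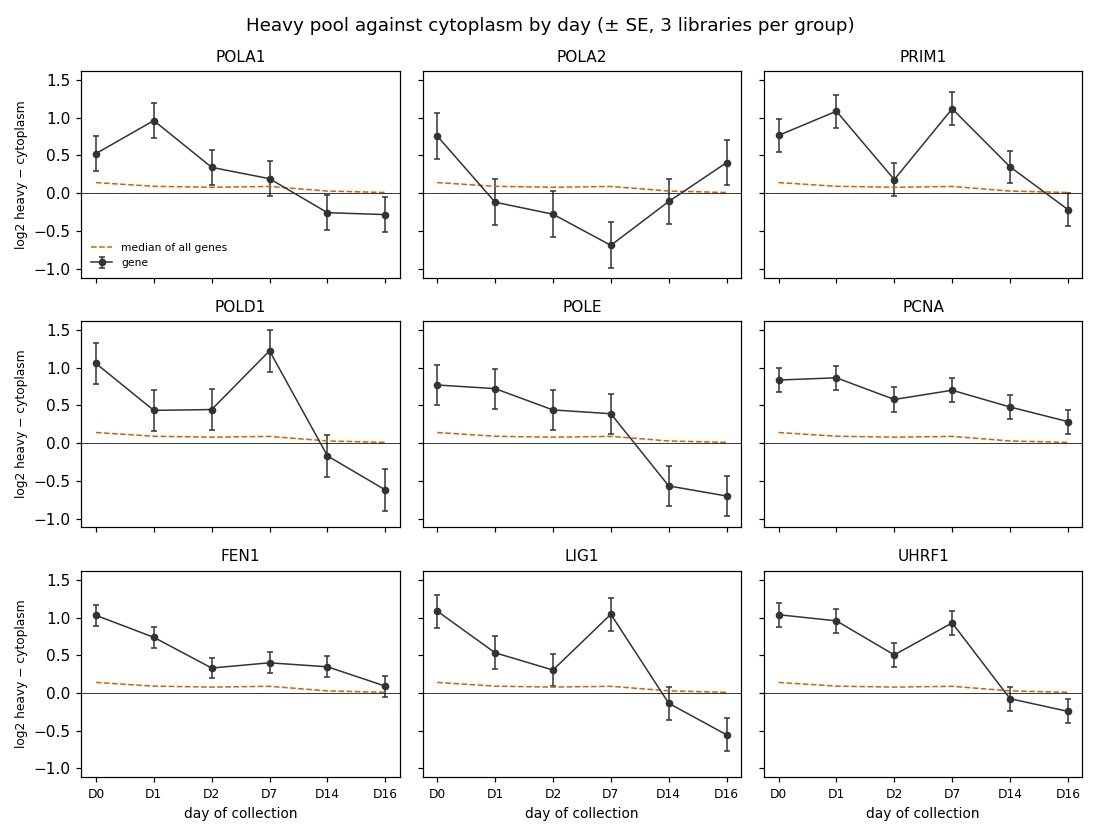
Heavy pool minus cytoplasm (log2, with its SE) of each gene on each day in black, and the median of all genes as a dashed line. POLA1, POLE, POLD1, LIG1 and UHRF1 lay above the all-gene median through D7 and below it at D14 and D16, while PCNA and FEN1 stayed above it throughout.

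The order of the days showed where levels could be told apart. In the heavy pool POLA1 was highest at D0 and D1, which did not differ beyond their spread (adjusted p = 0.111), and next at D14, D16 and D7, whose neighbours did not differ, with D2 below D7 (adjusted p = 3.645e-08). POLA2 split into a high pair (D1 and D0) and a low set (D7, D2, D14 and D16) with no called step inside either. For PRIM1 in the heavy pool each step down the order D0, D1, D7, D14 and D2 passed, and D2 and D16 did not differ (adjusted p = 0.807). POLE had a single called step below D1, to D16 (1.36, adjusted p = 1.87e-08), and no called step among D16, D14, D2 and D7. PCNA ran D1, D2, D0, D7, D14 and D16, with all steps passing but that between D2 and D0. In the cytoplasm the order of PCNA was the same, yet only the step from D7 to D14 passed (0.81, adjusted p = 0.00513). Cytoplasmic POLA2, POLD1 and LIG1 had no called step between neighbours in the order of their day means, which is not the order of time.

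Other genes of the machinery were also lower at D2, more of them in the heavy pool, where 34.5% of all genes fell and 30.4% rose, than in the cytoplasm, where 10.6% fell and 14.2% rose. Of 7 other replicative polymerase subunits, 6 fell and 1 rose in the heavy pool at D2: PRIM2, the primase partner, was at -2.10 ± 0.12 (SE; limma adjusted p = 6.15e-13) while the small δ subunit POLD4 was at 1.97 ± 0.17 (adjusted p = 1.01e-09). POLD4 was also called higher in the cytoplasm at D1 (1.21 ± 0.27) and D2 (1.93 ± 0.27). Of 12 genes of clamp loaders and the single-strand binding protein RPA, 11 fell and 0 rose in the heavy pool at D2, among them RFC5 at -1.56 ± 0.08. All 16 genes of origin firing fell there, among them the origin recognition subunit ORC1 at -2.37 ± 0.13 and the helicase cofactor CDC45 at -1.99 ± 0.10. Of 14 further fork, Okazaki fragment and chromatin assembly genes 13 fell and 0 rose, among them CHAF1A at -1.94 ± 0.09, of the chromatin assembly factor that binds PCNA, and the topoisomerase TOP1 at -2.03 ± 0.12. In the cytoplasm at D2 the calls were fewer: 2 of the 7 polymerase subunits, 5 of the 12 clamp loader and RPA genes, 10 of the 16 origin genes and 8 of the 14 further fork genes fell, and POLD4 was the 1 gene of these lists that rose. The medians of these 4 lists in the heavy pool at D2 were -0.99, -1.04, -1.41 and -1.12, against -1.79 for the 9 genes and -0.03 for all genes. In the cytoplasm at D2 they were -0.62, -0.75, -1.18 and -0.99, against -1.19 for the 9 genes and -0.001 for all genes. The spread between letters was wider in the cytoplasm, so the counts of calls do not compare the size of the falls between preparations.

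Of 14 polymerases measured outside the replicative set, 3 rose and 8 fell in the heavy pool at D2, where 30.4% of all genes rose and 34.5% fell, with the translesion polymerase POLH at 1.18 ± 0.13 (SE; limma adjusted p = 3.24e-08) and the mitochondrial RNA polymerase POLRMT at -1.55 ± 0.14. POLH, itself a known p53 target, stood at 1.68 ± 0.13 in the heavy pool and 1.68 ± 0.21 in the cytoplasm at D1. Of 12 p53 targets, 12 were higher in the heavy pool at D1 and 11 in the cytoplasm, with 0 lower in either, where 20.1% and 10.9% of all genes were higher. CDKN1A, the inhibitor of cyclin-dependent kinases, was at 3.11 ± 0.09 in the heavy pool at D1 and 4.70 ± 0.09 at D2. In the E2F and RB family 4 of 15 rose and 6 fell in the heavy pool at D2, near the 30.4% and 34.5% of all genes, with E2F7, a repressor of E2F targets, at 1.22 ± 0.12 and RBL1 at -1.05 ± 0.13. At D16, 3 rose and 10 fell in the heavy pool, where 36.2% of all genes rose and 36.6% fell, with E2F2 at -2.04 ± 0.09 and E2F7 at -1.47 ± 0.12.

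The mRNAs with the most similar course to each of the 9 genes were sought over 10 values (5 later days in both preparations) by the root mean square difference of log2 changes, among 12374 protein-coding genes. POLA1 was closest to MSH6 (0.32), HNRNPM (0.32) and KIF2C (0.34), and POLA2 to SHPK (0.36), CHAF1B (0.38) and FEN1 (0.38). POLD1 was closest to USP5 (0.11), RBM10 (0.17) and TELO2 (0.17), and POLE to TLN1 (0.18), KIF18B (0.19) and NCAPD3 (0.21). PRIM1 was closest to GART (0.20), SUPT16H (0.21) and WDR76 (0.22), FEN1 to ELAC2 (0.31), AIFM1 (0.32) and POLRMT (0.32), and LIG1 to POP1 (0.25), PPIL2 (0.26) and METTL3 (0.27). UHRF1 was closest to FOXRED1 (0.16), TBCD (0.26) and PARP1 (0.26). For 8 of the genes another member ranked within the nearest 155, as FEN1 did at rank 3 for POLA2. PCNA was closest to AIFM2 (0.27), MAPK8IP2 (0.27) and CDH24 (0.27). Its nearest fellow member, POLA2, came at rank 3447 of 12374 with a difference of 0.94, below the median of 1.11 over all genes.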

How the data were processed

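RNA was sequenced from the heavy polysomal pool and the cytoplasm of 5-FU treated HCT116 cells, in 36 libraries. Emetine preceded lysis, poly(A) RNA was selected and second strands were marked with dUTP, per the labels' protocols. Tools named in the submitters' processing notes are STAR 2.7.9a, featureCounts (Subread 2.0.1), DESeq2 1.30.1, cutadapt 3.2 and FastQC 0.11.9, with the build GRCh38. What the authors deposited is a normalised signal, in which the reads counted for each gene are divided by 1 size factor per library. The strand setting is not given in the sources used here. Every listed gene has a value of at least 1.004 in every library, so genes silent in any library are not analysed here. Columns that match no sample (18) were not used.

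Values were taken as log2(value + 1), and a gene needed 10 or more in 3 or more libraries (15852 in the heavy pool, 15889 in the cytoplasm, 15891 in both together). limma 3.58.1 in R 4.3.3 (lmFit, then eBayes with trend) was fitted to group means over all 6 days of a preparation, and over all 12 groups for polysome association. Tests were two-sided, adjusted by Benjamini-Hochberg over all genes, and called at an adjusted p under 0.05. All comparisons with D0 share its libraries. Values divided by that of 1 read gave whole reads for 100% of values within 0.01, from which depth was summed. The steps were tested on simulated data. Annotation and exon overlaps came from GENCODE 29.

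The letters pair the libraries, since the labels call them batches. Deviations of same-letter libraries from group means correlated at a mean r of 0.07 in the heavy pool (20 of 45 pairs of days over 0.1) and 0.19 in the cytoplasm (27 of 45). Heavy pool and cytoplasm of the same collection had a mean r of -0.0009 (5 of 18 over 0.1), and the association fit treats them as independent. The fit reported has no letter term, and the alternatives were that term, a pseudocount of 10, no filter, scaling to equal totals, only the groups compared, leaving out letters or single libraries and, added after seeing the data, differences within each collection. The 9 genes, the gene lists and the tests were chosen with earlier results of these data known. From each list, up to 3 called genes with the largest change in a comparison are named, and for each of the 9 genes the 3 nearest in course.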

Additional observations from a re-analysis of the deposited data

Results flagged for a closer look

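Each result here is a change from D0 that differed between the heavy pool and the cytoplasm, by the limma test of that difference (adjusted p under 0.05). At D14 the heavy-pool change was lower than the cytoplasmic change by these log2 values: -1.34 for POLE, -1.23 for POLD1, -1.22 for LIG1, -1.11 for UHRF1 and -0.68 for FEN1. At D16 the differences were -1.68 for POLD1, -1.64 for LIG1, -1.47 for POLE, -1.28 for UHRF1, -0.98 for PRIM1 and -0.94 for FEN1. Scaling to equal totals ended the calls of POLE, POLD1 and LIG1 at D14 and of PRIM1 at D16.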

How the results depend on the processing

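None of the 180 differences of the 9 genes changed direction with a call under any alternative run. The planned edgeR test on recovered reads was not run. Removing the low-value filter left all 180 on the same side of the threshold, and a pseudocount of 10 added 1 (POLA2 association at D7, making 1 of 9). Scaling to equal totals moved the count of genes called from 1 to 0 in the cytoplasm at D1, from 5 to 1 at D14 and from 5 to 3 at D16, and from 5 to 2 for association at D14. Between D14 and D7 in the cytoplasm it turned 2 higher and 2 lower into 5 higher and 1 lower. The letter block added 12 calls and removed 0. It raised the cytoplasmic count at D1 to 4 and the association counts to 1 at D2 and 2 at D7, and changed no call beyond those given with the results and the cytoplasmic POLA1 at D16 (adjusted p = 0.0492). Keeping both preparations of a collection together, an alternative chosen after seeing the data, gave 7 genes for heavy pool against cytoplasm at D0 and 0, 0, 0, 5 and 7 for association at D1, D2, D7, D14 and D16, with 1 call lost and 1 gained. Fitting only the groups compared added 12 calls and removed 0. It gave 5 genes in the cytoplasm at D1, 6 at D14 and 6 at D16, and 9 for heavy pool against cytoplasm at D0. For association it gave 1 gene at D1, 1 at D7, 7 at D14 and 7 at D16. Leaving out a letter or a library, the counts in the cytoplasm ran from 0 to 1 at D1, 4 to 7 at D2, 3 to 7 at D7, 1 to 4 at D14, 2 to 6 at D16, 1 to 5 between D14 and D7 and 0 to 0 between D16 and D14. In the heavy pool they ran from 4 to 5 at D1, 8 to 8 at D2, 8 to 9 at D7, 9 to 9 at D14, 9 to 9 at D16, 5 to 7 between D14 and D7, 0 to 5 between D16 and D14, and 6 to 7 for heavy pool against cytoplasm at D0. For association they ran from 0 to 0 at D1, 0 to 1 at D2, 0 to 2 at D7, 1 to 5 at D14 and 5 to 8 at D16. The cause was not tested where whole libraries stayed in; leaving out a letter also left 2 libraries per group. The median spread between letters, 9.68% in the heavy pool and 20.0% in the cytoplasm, limits the cytoplasmic differences more.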
